A study of Mus musculus with 2 samples.

Results

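The genes described here make cholesterol and fatty acids and control their own synthesis. They are 33 mouse genes, chosen by name as sterol and fatty acid synthesis enzymes and their SREBP regulators, of the 43629 genes that were counted. All 33 were found under their symbols in GENCODE release M21, and all 33 had reads in both libraries. They fall into 5 roles: the mevalonate arm (7 genes), the steps from squalene to cholesterol (10), the SREBP regulators (5), fatty acid synthesis (4), and desaturation and elongation (7).

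Poly-A RNA was sequenced from mouse embryonic stem (ES) cells in which Drosha, the nuclear nuclease that cuts microRNA hairpins out of primary transcripts, had been knocked out with paired CRISPR/Cas9 guides. The cells had a 129/Ola background, were untreated, grew in medium with serum and the cytokine LIF, which holds ES cells in their undifferentiated state, and were at passage 7. There were 2 libraries of 1 genotype, A with 29264632 counts and B with 42322129, and cells with intact Drosha were not analysed here, so no value below is a change from wild type. The titles give the cells the numbers 1 and 2, yet both carry an identical source name. Whether A and B are separate lines, cultures or preparations, and whether either is 1 clone, is not stated. The library labelled B carries no cell type label of its own, but the ES cell markers Pou5f1, Sox2, Nanog, Zfp42 and Esrrb summed to 3487 CPM in A and 3453 in B, where CPM are counts per 1000000 counts of a library. Defining markers of adipocytes (Adipoq, Plin1, Fabp4, Lep) summed to 0.136 and 0.0948 CPM, and those of hepatocytes (Alb, Apoa1, Ttr, Cyp7a1) to 0.477 and 0.284, with Alb and Cyp7a1 at 0 reads in both. Markers of primitive endoderm (Gata4, Gata6, Sox17, Sox7) were higher than these, summing to 7.23 CPM in A and 6.06 in B. Most of that was Gata4, at 5.08 and 4.26 CPM. In bulk RNA, fewer cells of a type and less RNA per cell cannot be told apart.

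Cholesterol and fatty acids both start from cytosolic acetyl-CoA. SREBP proteins, encoded by Srebf1 and Srebf2, are made as precursors in the endoplasmic reticulum membrane, where Scap escorts them toward cleavage when sterols are low and the Insig proteins hold them back when sterols are high. The released fragment enters the nucleus and activates the synthesis genes, SREBP-2 mainly those of cholesterol and SREBP-1 mainly those of fatty acids, together with the general factors NF-Y and Sp1. Dividing ES cells use these products as membrane material.

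Promoter sequences of the members were examined for short motifs that they share. RefSeq windows of 250 bases before to 50 after a start (GRCm38.p6) matched 27 of the 33 members, with 36 windows in all, and were not found for Fdps, Fdft1, Sqle, Scd1, Scd2 and Fads1. They were searched on both strands for a sterol regulatory element (TCACNCCAC), an E-box (CACGTG), the NF-Y box (CCAAT) and the GC box bound by Sp1 (GGGCGG). The bases before the start and outside any annotated exon are printed for Hmgcs1, which held the single sterol element match, for the sterol sensor Insig1, which had an E-box, and for Srebf2 and Fasn, the most strongly expressed of the genes that differed between the libraries. Capitals mark the matches, and each sequence reads 5′ to 3′ along the gene's own strand.
Hmgcs1 (chr13:119690101-119690350, plus strand): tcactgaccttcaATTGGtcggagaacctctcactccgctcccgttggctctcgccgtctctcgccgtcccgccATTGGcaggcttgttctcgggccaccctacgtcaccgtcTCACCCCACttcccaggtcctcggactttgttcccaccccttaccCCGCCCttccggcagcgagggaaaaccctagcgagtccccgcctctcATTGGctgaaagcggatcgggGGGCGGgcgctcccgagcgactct
Insig1 (chr5:28071162-28071362, plus strand): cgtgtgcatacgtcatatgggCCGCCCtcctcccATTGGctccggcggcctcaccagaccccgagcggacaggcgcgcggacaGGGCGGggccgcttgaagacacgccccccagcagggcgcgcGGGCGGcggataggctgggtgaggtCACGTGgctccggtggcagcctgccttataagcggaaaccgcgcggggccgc
Srebf2 (chr15:82147019-82147180, plus strand): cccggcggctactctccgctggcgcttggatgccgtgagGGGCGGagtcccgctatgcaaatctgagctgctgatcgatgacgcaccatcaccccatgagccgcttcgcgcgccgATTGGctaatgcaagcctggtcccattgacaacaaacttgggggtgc
Fasn (chr11:120824548-120824797, minus strand): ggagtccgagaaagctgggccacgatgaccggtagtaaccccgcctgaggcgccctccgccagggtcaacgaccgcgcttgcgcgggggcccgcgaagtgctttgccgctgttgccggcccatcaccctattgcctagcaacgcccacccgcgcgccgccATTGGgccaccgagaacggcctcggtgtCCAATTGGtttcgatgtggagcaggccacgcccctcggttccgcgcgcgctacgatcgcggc

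The NF-Y box was the most frequent match among the members, counted by gene. It was present in 22 of 27 members (81.5%), against 41.1% of all 27025 genes with a window and 43.96% of the 6274 genes whose CPM lay within the members' range. It was absent from the windows of Acaca, Acat2, Elovl6, Fads2 and Scap. The printed stretches hold 3 NF-Y boxes for Hmgcs1, 3 for Fasn, and 1 each for Insig1 and Srebf2. The GC box was in 21 of 27 members (77.8%), but also in 74.0% of genes in the same CPM range, so its share there was near the background, although it was 38.2% over all genes. An E-box was in 6 of 27 (22.2%: Hsd17b7, Insig1, Dhcr7, Sc5d, Elovl5 and Scap) against 13.2% in that range and 8.09% of all genes. The sterol element was in 1 of 27 (3.70%) against 1.37% in that range and 1.44% of all genes. Only this exact pattern was searched, and stretches that depart from it, such as tcaccccat in the printed bases of Srebf2, were not counted. A window without a match can therefore still hold a variant of the element. Of 111 matches in the members' windows, 1 pair of different motifs overlapped, and 1 pair of NF-Y boxes did, in Fasn. Windows of the same gene can overlap, so these matches are not all distinct sites. The 2 windows of Scap, for example, share an E-box and a GC box. Genes with several windows had more chances of a match. Counted by window, the NF-Y box was in 23 of 36 (63.9%) against 37.4% of all 32851 windows, and the GC box in 26 of 36 (72.2%) against 35.7%. A match is a run of letters and not a measured binding site, and these shares describe sequence with no test.

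**Figure D1:**
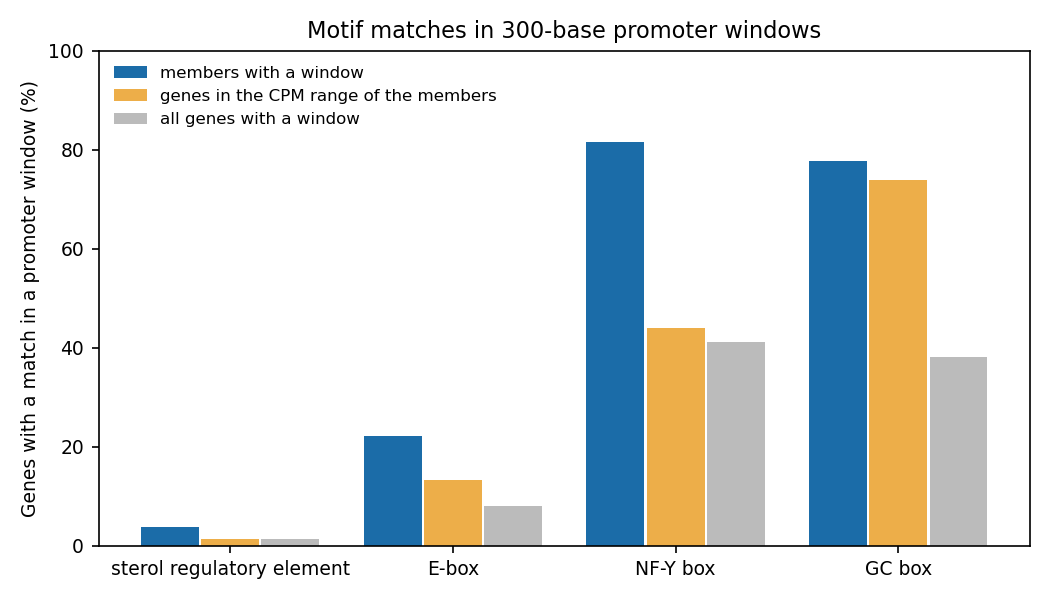
Share of genes (%, y axis) with at least 1 match of each motif (x axis) in their RefSeq promoter windows, for the 27 members with a window, for genes in the members' CPM range and for all genes with a window. The NF-Y box bars stand at 81.5%, 43.96% and 41.1%, while the GC box bars of the members and of genes in the same CPM range are at 77.8% and 74.0%.

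All 33 members were expressed. Each had at least 1 CPM in both libraries, the lowest being Hsd17b7 at 17.2 ± 0.947 CPM (SD, n = 2) and the highest Acly at 713 ± 0.419. Levels of different genes are compared per length, as TPM, reads per annotated exon base of a gene scaled to an equal sum in each library. On that scale the members ranged from 7.23 TPM for Acaca to 360.5 for Acly with a median of 54.3 ± 0.866, whereas the median of all genes tested was 9.47. Of the 33, 15 lay above the 90th percentile of TPM. Together the members took 0.489% of counts in A and 0.481% in B. The order of levels was stable between the libraries: of 32 pairs of neighbours in it, 22 had library values that did not overlap, and in 10 pairs the neighbours could not be separated by their spread.

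**Figure D2:**
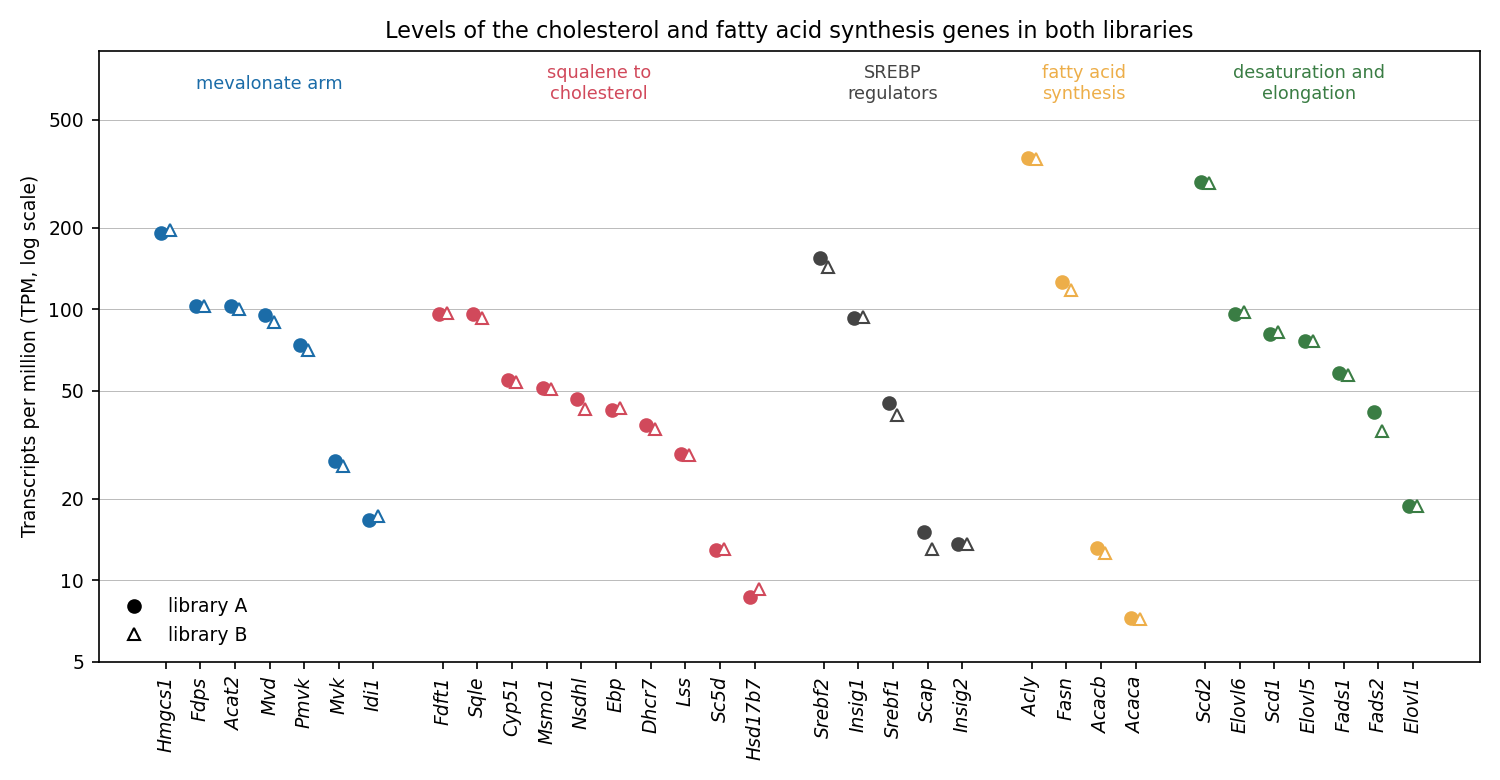
TPM (y axis, log scale) of the 33 genes (x axis), grouped by role and sorted by mean within a role. Filled circles are library A and open triangles library B. Acly and Scd2 stand highest, and Hsd17b7 and Acaca lowest.

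The mevalonate arm turns acetyl-CoA into isoprenoid units and had a median of 92.7 ± 3.96 TPM. Hmgcs1 (ENSMUSG00000093930, chromosome 13, 119690379 to 119708260), the synthase that makes HMG-CoA, led it with 191 TPM in A and 196 in B, the third highest level of all members. Fdps, which makes farnesyl diphosphate, had 103 TPM in both libraries. Its exons share 1124 bases with those of the overlapping gene Gm43738 on the same strand. Gm43738 was not among the genes counted, so reads of either gene there could be counted to Fdps, whose count is uncertain.

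Levels along the arm were uneven. Acat2, the cytosolic thiolase at its start, had 102 ± 2.05 TPM, Pmvk and Mvd, which phosphorylate and decarboxylate mevalonate derivatives, had 72.1 ± 2.30 and 92.7 ± 3.96, while the kinase Mvk had 26.96 ± 0.967 and the isomerase Idi1 16.95 ± 0.486. Acat2 has a near copy, Acat3, which shares 45.9% of the 50-base stretches of the longest Acat2 transcript letter for letter. Acat3 was counted at 29 reads in A and 42 in B against 2863 and 4054 for Acat2. The treatment of reads matching both genes is not given, and both counts are uncertain.

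The steps from squalene to cholesterol had a lower median, 43.8 ± 1.204 TPM, and a wide range. The squalene synthase Fdft1 had 95.99 TPM in A and 96.5 in B. The squalene epoxidase Sqle, an oxygen-dependent control point of the pathway, had 95.8 and 92.8. Their library values did not overlap, although those of Sqle reached close to those of Fdft1. After them came Cyp51, the lanosterol demethylase, at 54.3 ± 0.866 TPM, Msmo1 at 51.1 ± 0.157 and Nsdhl at 44.7 ± 2.70, which remove the C4 methyl groups, and the isomerase Ebp at 42.8 ± 0.294. Dhcr7, a reductase of the last steps, had 36.7 ± 0.920 TPM and the cyclase Lss 29.1 ± 0.0285. The lowest were the desaturase Sc5d at 13.0 ± 0.0287 and Hsd17b7, a ketoreductase of C4 demethylation, at 8.97 ± 0.416. The scale matters for some of these. With the length of the longest transcript in place of all exon bases, Msmo1 was at 85.7 TPM and Dhcr7 at 61.4. On that scale the order of Fdft1, at 89.1 TPM, and Sqle, at 94.9, was reversed. Fdft1 shares 774 exon bases with Ctsb and Cyp51 166 with Akap9, both on the opposite strand.

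Among the regulators, the SREBP-2 gene was far above the SREBP-1 gene. Srebf2 (ENSMUSG00000022463, chromosome 15, 82147181 to 82205379) had 155 TPM in A and 143 in B. Srebf1 (ENSMUSG00000020538, chromosome 11, 60199089 to 60222581) had 44.9 and 40.8. In both libraries Srebf2 was higher, with a ratio of 3.48 ± 0.0461, and the longest stretch identical between their transcripts is 15 bases, so few reads can match both. Counts per gene do not separate the SREBP-1a and SREBP-1c forms of Srebf1.

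The Insig genes showed an even larger gap. Insig1, itself a target of SREBP in its textbook role, had 93.0 TPM in A and 93.8 in B. Insig2 had 13.5 and 13.7, which gave a ratio of Insig1 to Insig2 of 6.87 ± 0.000698. An SD over 2 libraries, here and for the other ratios, does not give a ratio's precision. Insig2 had only 514 reads in A and 755 in B, whose counting error this SD leaves out. With longest transcripts the ratio was 6.11. Scap, the escort, was also low, with 15.1 TPM in A and 13.0 in B. Thus the precursor gene Srebf2 and the feedback gene Insig1 stood at percentiles 95.6 and 92.8 of TPM over the genes that had reads, whereas Scap and Insig2 were at 68.8 and 68.4.

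Fatty acid synthesis held the widest range of levels. Acly (ENSMUSG00000020917, chromosome 11, 100476353 to 100528000), which makes cytosolic acetyl-CoA from citrate, had 363 TPM in A and 358 in B. Fasn (ENSMUSG00000025153, chromosome 11, 120805846 to 120824547), the synthase that builds palmitate, had 126 and 118. Both were far above the acetyl-CoA carboxylases, whose product malonyl-CoA is the building block of the chain. Acaca, the cytosolic carboxylase, had 7.26 TPM in A and 7.19 in B, and Acacb, the mitochondria-bound form known mainly for limiting fatty acid oxidation, had 13.2 and 12.6. The ratio of Acaca to Acacb was 0.562 ± 0.0149, but this depends on length: Acaca has 17074 exon bases in the annotation and a longest transcript of 9513, and with longest transcripts the ratio was 0.921. On that scale Hsd17b7, at 8.05 TPM, and not Acaca, at 10.5, was the lowest member. In reads the 2 carboxylase genes were alike, with 1354 in A and 1955 in B for Acaca and 1384 and 1925 for Acacb.

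Of the desaturases, Scd2 rather than Scd1 carried most of the RNA. Scd2 (ENSMUSG00000025203, chromosome 19, 44293674 to 44306864), a stearoyl-CoA desaturase known from brain and embryo, had 295 TPM in A and 293 in B, the second highest level of all members. Scd1, the main form of liver and fat, had 80.9 and 82.8. In both libraries Scd2 was higher, by 3.59 ± 0.0737 times. The genes lie 87.6 kb apart, and 3.03% of the 50-base stretches of the longest Scd1 transcript are found in Scd2, so a small part of their reads is uncertain. The other members of the cluster were low: Scd3 had 2.39 ± 0.302 TPM and Scd4 0 reads in A and 4 in B.

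Fads1 and Fads2, the delta-5 and delta-6 desaturases of polyunsaturated fatty acids, lie back to back on chromosome 19, 81.1 kb apart. Fads1 had 58.1 TPM in A and 57.2 in B, and Fads2 had 41.6 and 35.6, a ratio of 1.395 in A and 1.60 in B, whose mean was 1.99 with longest transcripts. Elovl6, which lengthens palmitate, had 95.8 TPM in A and 97.7 in B. Elovl5, which lengthens polyunsaturated chains, had 76.5 in both, and Elovl1, which makes very long saturated chains, had 18.8 and 18.7. The ratio of Elovl6 to Elovl5 was 1.26 ± 0.0180, and 1.08 with longest transcripts. Elovl1 stood apart from both: the ratio of Elovl6 to it was 5.15 ± 0.0857, and 3.70 with longest transcripts. That of Elovl5 to Elovl1 was 4.08 ± 0.00976, and 3.43 with longest transcripts.

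Several members carry annotated microRNA hairpins. Drosha cuts most microRNA hairpins from their primary transcript, while mirtrons are released by splicing without it, and which route each of these hairpins takes was not tested. The best known is Mir33 in an intron of Srebf2, whose product is known to act on Abca1, the cholesterol efflux pump. The mature sequences from RefSeq (GRCm38.p6) are shown for the hairpins in Srebf2, for that in Fads1 and for a hairpin of Srebf1 that shares a seed with it. Capitals mark the seed, bases 2 to 8.
miR-33-5p, in Srebf2 (chr15:82198127-82198147, plus strand): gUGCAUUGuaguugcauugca
miR-33-3p, in Srebf2 (chr15:82198167-82198188, plus strand): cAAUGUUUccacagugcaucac
miR-6993-5p, in Fads1 (chr19:10191380-10191402, plus strand): aGUGGGAGaaacgggugucuguc
miR-6922-5p, in Srebf1 (chr11:60202300-60202322, minus strand): uGUGGGAGgggacuguagagagg
Mir7116 in Acly was not among the genes counted, so its reads are unknown. Hardly any read was counted to the other hairpins. Mir33 had 1 read in A and 0 in B, where its host had 12161 and 16385. Mir6993 in Fads1 had 0 and 2, Mir6921 in Srebf1 had 1 and 0, and Mir6922 in Srebf1 and Mir5114 in Scd2 had 0 in both. The last 2 lie wholly inside annotated exons of their hosts, in 66 and 61 exon bases, so reads there could be given to either gene or to none. A count of 0 allows up to 0.102 CPM in A and 0.0711 in B, the level of 3 reads, and covers counting error only. Such counts measure poly-A RNA over a short span and not the mature microRNA. Abca1 itself had 12.5 TPM in A and 12.4 in B.

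The libraries were then compared gene by gene. Each gene's reads were tested with a two-sided exact binomial test against the share expected from library sizes scaled by TMM (trimmed mean of M-values), with Benjamini-Hochberg adjustment over all 18198 genes with at least 10 reads. Such a test compares the reads of these 2 libraries and holds no spread between cultures. All 33 members passed the read filter, and 5 were called at an adjusted p below 0.05: Srebf2, Srebf1, Scap, Fasn and Fads2. All 5 were lower in B, where 0.989% of all genes tested were called in that direction and 2.29% in either. None was called higher in B, where 1.3% of all genes were. Among the 8163 genes in the members' CPM range 3.86% were called. No member differed by 2-fold, as 0.0879% of all genes were called to do, and 31 of 33 differed by less than 10%. The median log2 ratio of B over A was 0.0049 for the members and 7.1e-05 for all genes tested.

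Of the 5 regulators 3 were called, where 2.29% of all genes tested were. Srebf2 was counted at 415 CPM in A against 388 in B, for a log2 ratio of -0.095 (95% interval of counting error -0.13 to -0.061, exact binomial test, adjusted p = 1.03e-05). Srebf1 had 94.2 and 86.6 CPM, a log2 ratio of -0.12 (-0.19 to -0.050, adjusted p = 0.0408, exact binomial test). Scap had 41.7 and 36.5 CPM, a log2 ratio of -0.19 (-0.30 to -0.082, adjusted p = 0.0308, exact binomial test). All 3 calls were lost when a trend of the ratios with GC content was removed, with adjusted p-values of 0.175, 0.654 and 0.388 (exact binomial test). The Insig genes, which hold the complex back, were not called. Insig1 was at 107 CPM in A against 109 in B, with a log2 ratio interval of -0.036 to 0.095. Insig2 had 17.5 and 17.9 with an interval of -0.13 to 0.19. The GC contents of their longest transcripts are 48.2% for Insig1 and 46.0% for Insig2. Those of Srebf2, Srebf1 and Scap are higher, at 57.9, 58.4 and 59.1%.

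The enzymes gave 2 calls, in 1 of the 4 genes of fatty acid synthesis and 1 of the 7 of desaturation and elongation. Fasn was counted at 515 CPM in A against 485 in B, for a log2 ratio of -0.086 (-0.12 to -0.056, adjusted p = 6.81e-06, exact binomial test). Fads2 had 51.1 and 44.2 CPM, a log2 ratio of -0.21 (-0.31 to -0.11, adjusted p = 0.00414, exact binomial test), the largest difference of any member. Its neighbour Fads1 had 104 CPM in both and an interval of -0.071 to 0.063, but the difference between these neighbours was not tested. Acly, upstream of Fasn in the pathway, had 713 CPM in both and a narrow interval of -0.027 to 0.024.

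No gene of the sterol steps passed the adjusted exact binomial test. In the mevalonate arm 0 of 7 were called, and 1 had an unadjusted p under 0.05: Hmgcs1, with 327 CPM in A against 340.4 in B, a log2 ratio of 0.058 (0.020 to 0.095, adjusted p = 0.0810, exact binomial test). From squalene to cholesterol 0 of 10 were called, and 1 had an unadjusted p under 0.05: Nsdhl, with 49.5 and 46.0 CPM (log2 ratio -0.11, adjusted p = 0.347, exact binomial test). Over 17 genes the 0 calls are near the background of 2.29% called among all genes. At an unadjusted p under 0.05 the background was higher, with 2250 of all 18198 genes tested (exact binomial test). The widest interval was that of Hsd17b7, from -0.054 to 0.28, so differences of that size could not be seen at its 484 reads in A and 753 in B.

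**Figure D3:**
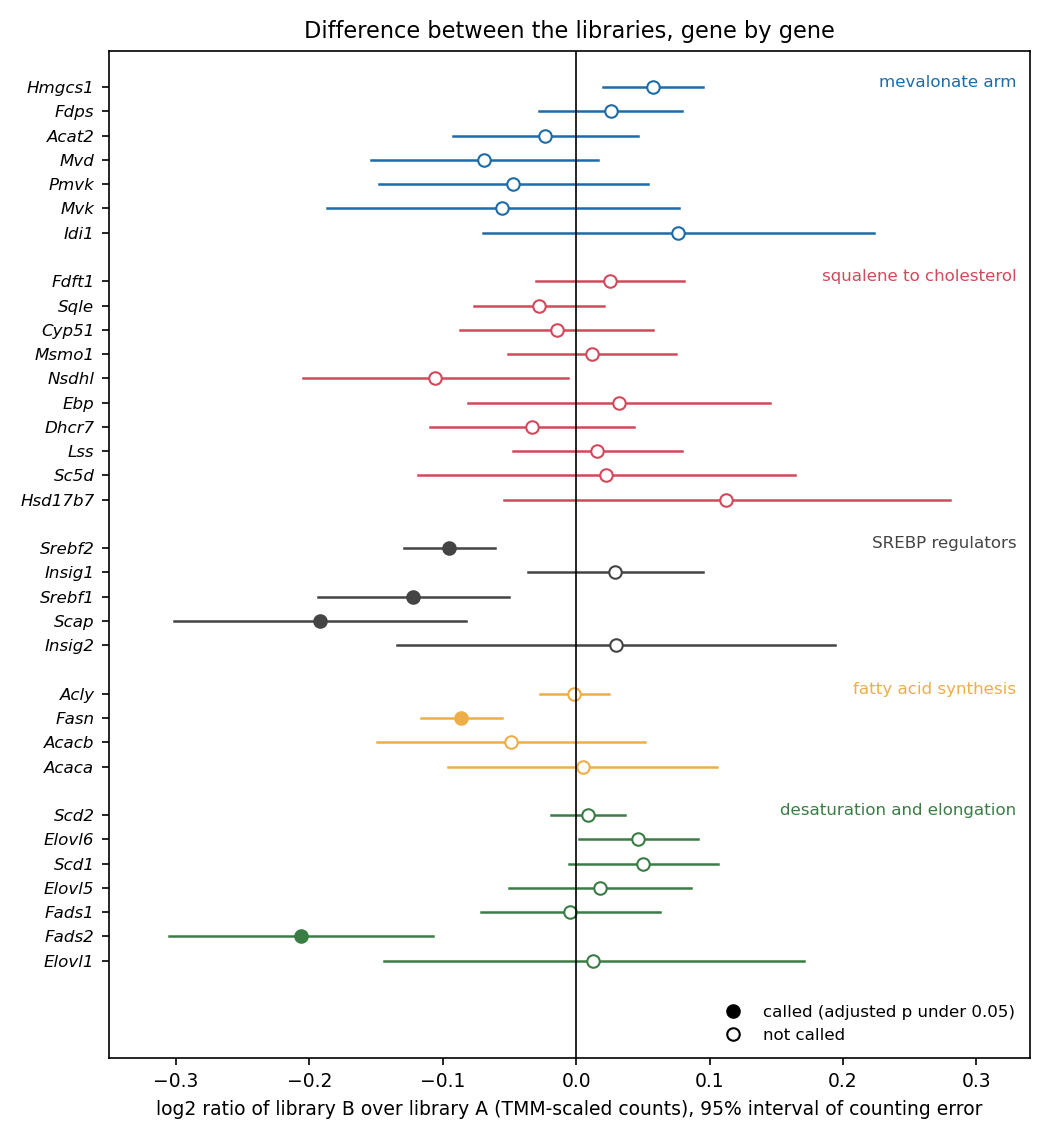
Log2 ratio of library B over library A (x axis) of each member (y axis), with 95% intervals that cover counting error only. Filled points are called. The 5 called genes all lie left of 0, between -0.21 and -0.086, and every point lies between -0.21 and 0.11.

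Base composition moved with these differences. Across genes with at least 100 reads the median log2 ratio in 5 classes of GC content fell from 0.040 in the poorest class to -0.055 in the richest. The members followed it, with medians of 0.067 for the 4 members in the poorest class and -0.078 for the 8 in the richest. Srebf2, Srebf1, Scap and Fasn have GC contents of 57.9, 58.4, 59.1 and 57.9% in their longest transcript, all in the richest class, where 4.82% of 2699 genes were called lower in B and 5.26% either way. With the trend removed, 4 of the 5 calls were lost, with log2 ratios of -0.051 for Srebf2, -0.062 for Srebf1, -0.13 for Scap and -0.043 for Fasn, whose adjusted p was 0.245 (exact binomial test). Fads2, at 54.4% GC, kept a log2 ratio of -0.19 and an adjusted p of 0.0269, when 0.769% of all genes were called. No member was called by edgeR's exact test at the assumed coefficient of variation of 0.1, and 0.0055% of all genes were. That assumption is above the 2.25% estimated from both libraries. Differences as small as the members' could not be called under it, so edgeR's test does not decide on them. Some markers of feeder fibroblasts also differed between the libraries. The 7 markers summed to 51.1 CPM in A and 47.1 in B, most of it Thy1, which was at 42.9 and 43.7 CPM and not called. The other 6 summed to 8.11 and 3.43 CPM, and 4 of them, Col1a2, Col3a1, Postn and Dcn, each under 2 CPM, were called lower in B. Which cells these reads came from was not tested, nor was their part in the members' differences.

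**Figure D4:**
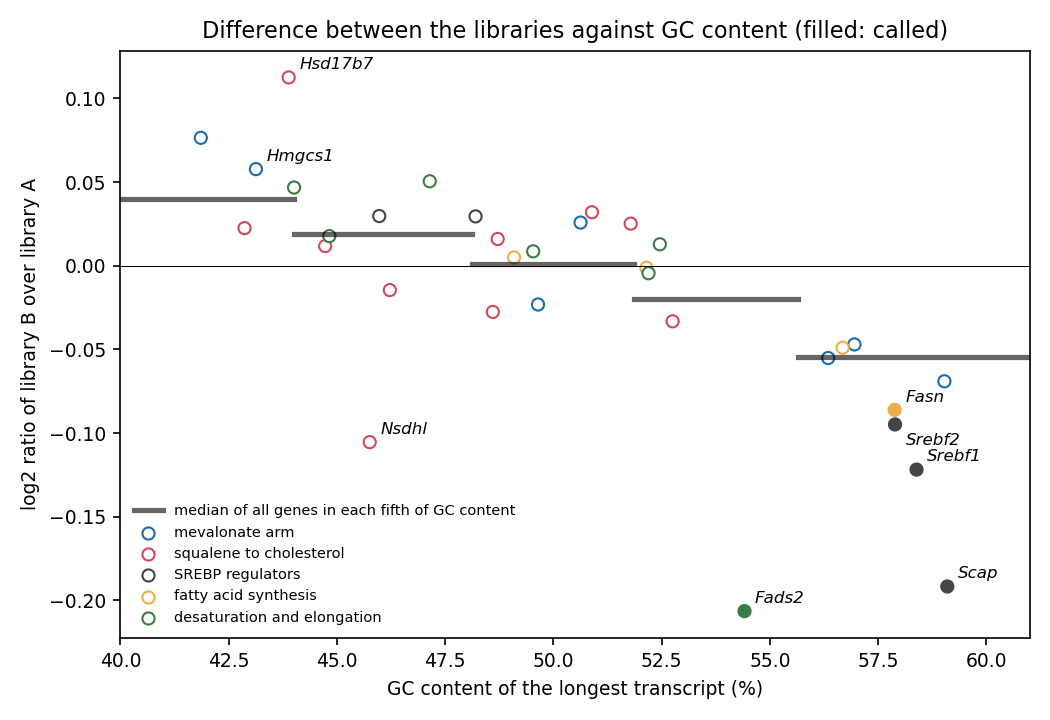
Log2 ratio of B over A (y axis) against the GC content of the longest transcript (x axis, %) for the 33 members, coloured by role and filled where called. Grey bars are the medians of all genes in 5 classes of GC content, which step down from 0.040 to -0.055. All 5 called members lie below the bar of their class.

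Of 43 further genes of the pathway, 41 could be tested and 39 had at least 1 CPM in both libraries, at a median of 15.1 ± 0.322 TPM. The citrate carrier Slc25a1, which exports the substrate of Acly from mitochondria, was the highest at 177 TPM, followed by the enoyl reductase of chain elongation, Tecr, at 157. Of the SREBP processing genes the site-1 protease Mbtps1 led with 60.3 TPM, and the site-2 protease Mbtps2 had 15.1. The farnesyltransferase subunit Fnta had 87.0 TPM, the acyl-CoA synthetase Acsl3 46.1, and the oxysterol receptor Nr1h2 64.9 against 0.994 for its relative Nr1h3. The paralogs of the members were low: Elovl4 led them at 8.05 TPM.

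In that list 1 gene was called, the lipogenic transcription factor Mlxipl. It was counted at 19.7 CPM in A against 15.9 in B, for a log2 ratio of -0.31 (adjusted p = 0.0138, exact binomial test), again lower in B. With the GC trend removed the log2 ratio was -0.27 and the call was lost. The share called, 2.44% of those tested, was near the 2.29% of all genes. Pparg, the master regulator of fat cells, had 2 reads in A and 0 in B.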

How the data were processed

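For each library the authors deposited a table of unnormalized counts by Ensembl gene ID. The submitters' processing notes list STAR 2.4.2a, featureCounts 1.4.5-p1 and mm10 but no role or option for them. Annotation release, strand setting and handling of multiply matching reads are not given, which leaves counts of overlapping and near-identical genes uncertain. RNA was extracted with Trizol and libraries were made with a TruSeq kit in a reverse-stranded protocol, per the labels' protocols.

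Symbols, positions, exon lengths and GC content came from GENCODE M21 (GRCm38, the build of mm10), which matched 97.5% of IDs. The others held 0.163% of counts. Depths were 29264632 (A) and 42322129 (B) counts. TMM factors were computed over genes with at least 10 reads (edgeR 4.0.16, R 4.3.3) and CPM from them. TPM used exon length without TMM, so the libraries were compared in CPM. A quasi-likelihood fit has no residual degrees of freedom here, so an exact binomial test replaced it, with Benjamini-Hochberg adjustment over 18198 genes and a threshold of 0.05. P-values and intervals (95%, Clopper-Pearson) cover counting error only. Log2 ratios add 0.5 reads on average to each count. The GC trend is the median log2 ratio in 20 bins. The binomial test was tested on simulated counts. Alternatives were total counts, DESeq2 1.42.0 size factors, other filters, lengths and thresholds, edgeR's exact test, and each library alone.

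Genes named with values are the called members, the 2 highest of each role, the paralogs, members under 1 CPM (none) and, of the further genes, those called and the highest of each group; others were named after their values were seen. Members and lists were chosen with earlier results of these data known. Proteins were not compared, and transcript stretches of 50 bases were compared instead. Python 3.11.15, pandas 2.3.3, scipy 1.17.1 and matplotlib 3.10.9 were used.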

Additional observations from a re-analysis of the deposited data

How the results depend on the processing

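All 33 members kept 1 CPM in both libraries with every scaling, threshold (0.5 and 5 CPM) and single library tried. The 5 calls, all lower in B, were the same genes with total counts, DESeq2 size factors and a filter of 50 reads, and 4 of them with a filter of 1 read, which lost Srebf1 (adjusted p = 0.0555, exact binomial test; 0.0243 to 0.0498 under the other scalings). With the GC trend removed 1 member was called, and 140 genes in all against 417. With edgeR's exact test at an assumed coefficient of variation of 0.1, 0 members were called, 0 at an unadjusted p under 0.05, and 1 gene in all. The common variation estimated from both libraries was 2.25%, below that assumption, under which differences as small as the members' could not be called. Of the further pathway genes 0 were called with the GC trend removed (exact binomial test, 2 at an unadjusted p under 0.05). Calls over all genes were 237 higher in B and 180 higher in A, but 180 and 242 with total counts. The members' median log2 ratio was -0.0023 with total counts, 0.0085 with DESeq2 and -0.0050 without the GC trend, so its sign is not given. The median level was 64.9 TPM from longest transcripts, 57.9 without mitochondrial genes, and 53.7 to 54.9 in single libraries. The order within each paralog pair was the same in mean TPM with either length and in each library's TPM. Without length correction Acaca and Acacb were near equal, at 0.997. No paired analysis was possible because there is 1 group.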
